A study of Sus scrofa with 14 samples.

Results

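The 200 genes described here were those with the most even RNA levels over all 14 samples of a series on porcine pluripotent cells, which compared culture media and the origin of the cells. Of the 19588 genes in the table, 2905 had a normalized count of at least 500 and below 8000 in every sample, outside a block of 37 consecutive identifiers that was left out. The 200 of these with the lowest SD of log2(normalized count + 1) over the 14 samples were taken, and the other 2705 genes of this level window serve as the comparison. The members were thus chosen by their spread over these same samples, which is given as a description and was not tested. Gene symbols were found for 185 of the 200 genes, and the other 15 are known here by Ensembl identifier only. The last genes taken were TUBGCP3 (SD 0.2275), CXXC1 (SD 0.2275) and DPY30 (SD 0.2277), and the first ones left out were FAM135A (SD 0.2278), TBC1D10B (SD 0.2279) and RAB4B (SD 0.2280).

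Genes with even RNA levels across tissues are called housekeeping genes, and most serve tasks that any cell performs, such as transcription, splicing, protein folding, vesicle traffic and protein turnover. In qPCR a few of them, above all GAPDH and ACTB, serve as reference genes by which the signal of other genes is divided, so that a reference gene that varies passes its variation on to every gene divided by it. Pluripotent cells are cultured with growth factors and kinase inhibitors that act on the FGF, LIF, BMP, TGFB and WNT pathways.

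The 7 groups held 2 samples each, and the lines were grown on irradiated mouse embryonic fibroblasts. Of the embryonic cells, pESCLC-primary were blastocyst outgrowths in F, the medium with FGF2. The lines grown on from such outgrowths were pESCLC-F (lines A1 and A2, both at passage 2), pESCLC-FLB2i (line B1 at passages 3 and 6) and pESCLC-FL6i (line C2 at passages 3 and 9). The move from F into FL6i took place on day 8, and that from FL6i into FLB2i on day 18. FLB2i contained LIF, FGF2, BMP4 and inhibitors of GSK3 and of the TGFB receptor. FL6i contained FGF2, LIF and inhibitors of p38 (MAPK14), JNK (MAPK8), the TGFB receptor, GSK3, MEK (MAP2K1) and the BMP receptor. The induced cells were Lv-piPSC-F, Epi-piPSC-FLB2i (line B5 at passages 9 and 12) and Epi-piPSC-FL6i (passage 12 of line C10, passage 11 of line C11). Lv-piPSC-F were made with lentiviral vectors and grown in F, the titles of both samples carry the line name ID6, and the source label of the second gives another code with passage 46. The Epi-piPSC lines were made from fetal fibroblasts with episomal plasmids that carried the human genes KLF4, SOX2, POU5F1, L-MYC and LIN28 and a short hairpin RNA against p53. In Epi-piPSC-FLB2i, pESCLC-FL6i and pESCLC-FLB2i both samples came from 1 line at different passages, and the study describes Lv-piPSC-F as 1 line, so the spread within these groups is not one between separate lines.

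Reads counted on genes ranged from 6193659 in the second pESCLC-FL6i sample to 58878377 in the other extreme, the second of Lv-piPSC-F. The lowest member value in any sample rested on 191 reads. Counting error alone would give the 200 genes a median SD of 0.0399, or 4.30% of the variance of the median member.

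The labels were checked against cell type markers. Of 12 markers of pluripotent cells 5 were matched to the table, and they did not follow 1 pattern. POU5F1 and SOX2 were among those not matched. LIN28A, an RNA-binding protein, was at 1940 normalized counts or more in every sample of the other groups and at most 32.3 in the 4 pESCLC-FL6i and pESCLC-FLB2i samples. The transcription factor NANOG was at 178 to 847 normalized counts in the Lv-piPSC-F, pESCLC-F and pESCLC-primary samples, at 7.86 to 36.9 in both pESCLC-FL6i and both FLB2i groups, and lowest in Epi-piPSC-FL6i (0.966 and 0.999). ESRRB, also a transcription factor, was highest in Epi-piPSC-FL6i (2819 and 3413) and at 10.47 and 11.13 for pESCLC-F, below the 91.2 and 28.8 of pESCLC-FL6i. KLF4 was at 1653 in the second pESCLC-FL6i sample, against 20.98 in the first and at most 49.6 in the pESCLC-primary and pESCLC-F samples. It was also at 1182 and 1641 for Epi-piPSC-FL6i and between 115 and 368 in the Epi-piPSC-FLB2i and Lv-piPSC-F samples. The study reports plasmid LIN28 in Epi-piPSC lines and ectopic human KLF4 in the lentiviral line. Whether reads from such vectors were counted on the pig genes KLF4 and LIN28A was not tested. DNMT3B, a DNA methyltransferase, was highest in Lv-piPSC-F (35581 and 47300). The summed level of 8 trophectoderm markers was 112399 normalized counts or more in the pESCLC-primary and pESCLC-F samples and at most 503 in pESCLC-FL6i and pESCLC-FLB2i, most of it KRT18, a keratin. CDX2 and TFAP2C, transcription factors of the same list, differed from it. CDX2 was highest in Epi-piPSC-FLB2i (785 and 757) and at 4.19 and 14.2 for pESCLC-F, and TFAP2C was highest in Epi-piPSC-FL6i (1088 and 1608) and at most 2.02 in pESCLC-F. The primitive endoderm markers HNF4A and GATA4 were at 7811 to 15090 and 6692 to 10841 normalized counts in the pESCLC-primary and pESCLC-F samples and at most 17.5 elsewhere. FOXA2 of the same list was at 2510 to 4081 and at most 11.5 in the same order. Other markers of the list differed. GATA6 was also at 668 and 1299 for Lv-piPSC-F and 433 and 624 for Epi-piPSC-FL6i. PDGFRA was also at 941 and 1056 for Epi-piPSC-FLB2i, and AFP was at 0 in both pESCLC-primary samples. The neural ectoderm marker PAX6 was at 205 to 1666 in pESCLC-FLB2i and pESCLC-FL6i and at most 4.92 in pESCLC-primary and pESCLC-F. OTX2 of the same list went the other way, at most 2.62 and at 3565 to 6664 in the same order. The mesoderm marker EOMES was at 5381 to 7398 in pESCLC-primary and pESCLC-F and at most 201 elsewhere. DES of that list was highest in Epi-piPSC-FLB2i (5985 and 5645). Of 12 fibroblast markers 11 were matched, and their summed level was 291331 normalized counts in the second pESCLC-FL6i sample against 935 in the first. COL1A1, collagen I, was the most abundant of them, at 155568 normalized counts in that second sample. The sum was 42557 against 2015 for pESCLC-FLB2i and 20938 against 439 for Lv-piPSC-F, with the higher value in the second sample each time. Samples of the remaining groups ran from 5416 (first pESCLC-F) to 25519 (first Epi-piPSC-FLB2i), a range that held the 20938. The 439 was the lowest sum of all 14 samples. COL1A2 and COL1A1 made up most of the 42557, at 27182 and 6951. From the first to the second Lv-piPSC-F sample PDGFRB fell from 111 to 74.8 and S100A4 from 187 to 152. The other matched markers rose. In pESCLC-FLB2i all rose, PDGFRB only from 218 to 246. COL6A3, POSTN and FAP, of the same list, were each at 0 in some sample. In bulk samples fewer cells of a type and less RNA per cell cannot be told apart.

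The promoters of 2 of the 5 members with the lowest SD are shown. Both belong to the CpG-rich class that most of the 200 genes share. They run from 250 bases before to 50 bases from the gene start in the RefSeq annotation of Sscrofa11.1, 5′ to 3′ on the strand of the gene. Capitals mark GC boxes (GGGCGG or CCGCCC), an ETS motif (CTTCCGG, or CCGGAAG on the other strand) and an E-box (CACGTG), and none of these matches overlapped. GIGYF2 lies on the plus strand at chr15:133180638-133313307, with the window chr15:133180388-133180687, and overlaps a gene on the other strand. ATG2B lies on the minus strand at chr7:117506298-117586651, with the window chr7:117586602-117586901.
GIGYF2: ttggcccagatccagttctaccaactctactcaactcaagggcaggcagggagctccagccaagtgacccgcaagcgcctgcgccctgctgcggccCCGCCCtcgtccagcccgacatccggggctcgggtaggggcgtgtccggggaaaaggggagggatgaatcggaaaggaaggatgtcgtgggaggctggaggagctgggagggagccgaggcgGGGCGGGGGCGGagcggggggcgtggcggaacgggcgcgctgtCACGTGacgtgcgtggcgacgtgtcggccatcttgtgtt
ATG2B: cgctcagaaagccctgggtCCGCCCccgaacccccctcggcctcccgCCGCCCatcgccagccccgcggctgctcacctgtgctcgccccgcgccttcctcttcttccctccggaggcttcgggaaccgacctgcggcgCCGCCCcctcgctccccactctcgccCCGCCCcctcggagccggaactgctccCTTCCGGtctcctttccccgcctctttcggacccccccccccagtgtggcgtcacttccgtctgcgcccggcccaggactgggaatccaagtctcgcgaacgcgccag
The windows had a G+C content of 68.7% and 73.3% and held 29 and 34 CpG dinucleotides. GC boxes occurred 3 times in GIGYF2 and 4 times in ATG2B. A match is a description of the letters and says nothing of a factor bound there.

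Positions were found by symbol for 177 of the 200 genes and for 2360 of the other window genes, and 13176 genes of the table were matched in all. The promoters of the members had a median observed to expected CpG ratio of 0.842, those of the other window genes 0.822, and those of all matched genes 0.727. A ratio of at least 0.6 was reached by 82.5% of the member promoters, 81.3% of the other window promoters and 63.7% of all. A GC box was in 69.5% of the member promoters, 69.0% of the other window promoters and 59.5% of all, and an ETS motif in 20.9%, 20.6% and 12.8%. In these features the members lay close to the window genes of wider spread, and both lay above the table as a whole. A cAMP response element (TGACGTCA) was in 12 member promoters, 6.78%, against 3.69% of the other window promoters and 2.71% of all. The letters TATAAA were in 7.91%, 5.38% and 8.53% of the 3 sets, the letters CCAAT in 34.5%, 38.7% and 35.0%, and the E-box letters in 7.91%, 10.9% and 8.83%. The NRF1 motif was in 1.69%, 2.33% and 1.34%, and AAGATGGCG, known for YY1, in 2.82%, 3.69% and 1.79%. All were searched on both strands. Matched members had a median of 15 exons and a median longest transcript of 4309 bases, against 12 exons and 3960 bases in the other window genes.

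By position, chromosomes 2 and 7 held 22 members each, which was 7.91% of the matched window genes of chromosome 2 and 15.7% of the 140 of chromosome 7. The shares of the other chromosomes ran from 3.07% for chromosome 12 to 11.9% for chromosome 16, and 6.88% of all window genes were members. Among those on chromosome 7 were the chromatin genes BRD2, EHMT2, CHD8 and YY1 and the microRNA processing enzyme DICER1. Another annotated gene overlapped 54 of the 177 matched members (30.5%) and 30.8% of the other window genes, and the reads of overlapping genes are uncertain. CTCF, BRD2, TRPC4AP, PPIL2 and GIGYF2, described here, were among the members with a gene on the other strand.

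SEC63, a partner of the channel through which proteins enter the endoplasmic reticulum, had the lowest SD of the window, 0.0896. Its normalized counts were 2386 and 2483 for pESCLC-primary, 2394 and 2491 for pESCLC-F, 2297 and 2177 for pESCLC-FLB2i and 2200 and 2450 for pESCLC-FL6i. They were 2242 and 2637 for Lv-piPSC-F, 2280 and 2361 for Epi-piPSC-FLB2i and 2642 and 2525 for Epi-piPSC-FL6i. The highest sample was 1.21 times the lowest, and all groups overlapped in range with at least 1 other group. CTCF, the insulator protein that shapes chromatin loops, was at 2233 and 2252 for pESCLC-primary, 2257 and 2095 for pESCLC-F, 2441 and 2029 for pESCLC-FLB2i and 2184 and 2088 for pESCLC-FL6i. It was at 2347 and 2785 for Lv-piPSC-F, 2369 and 2293 for Epi-piPSC-FLB2i and 2321 and 2476 for Epi-piPSC-FL6i (SD 0.117). The second Lv-piPSC-F sample was high and the second pESCLC-FLB2i sample low.

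The other members among the 20 with the lowest SD came from several cellular tasks. ENSSSCG00000029203 (SD 0.0912, 1198 to 1491 normalized counts) and ENSSSCG00000035650 (SD 0.107, 834 to 1060 normalized counts) have no symbol. GIGYF2, a partner of a cap-binding protein in translational repression, ran from 1018 to 1330 normalized counts (median 1195, SD 0.105). EIF4ENIF1, which binds the cap-binding factor eIF4E and carries it into the nucleus, ran from 814 to 1184 (median 1037, SD 0.134). GEMIN2, of the SMN complex that assembles spliceosomal particles, ran from 651 to 865 (median 749, SD 0.138). The second pESCLC-FLB2i sample was the lowest of all 14 for GIGYF2 and EIF4ENIF1. Ranges in normalized counts are given in the same way for the genes that follow.

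In chromatin, BPTF, the largest subunit of the NURF remodelling complex, ran from 2283 to 2971 (median 2648, SD 0.112). BRD2, which reads acetylated histones, ran from 4471 to 6374 (median 5312, SD 0.134). TRIM33, a ubiquitin ligase known to act on SMAD4, ran from 940 to 1234 (median 1077, SD 0.128). These 3 genes stayed within 1.43 times between their own extremes.

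Further members of the lowest 20 serve protein turnover. MAEA, of the CTLH ubiquitin ligase, ran from 809 to 1053 (median 930.1, SD 0.123). DCAF8, a substrate receptor of the CUL4 ubiquitin ligases, ran from 1764 to 2603 (median 2109, SD 0.132). UBQLN4, which carries ubiquitinated proteins to the proteasome, ran from 1166 to 1637 (median 1431, SD 0.132). In this group the second Lv-piPSC-F sample was the highest for DCAF8 and the second pESCLC-FL6i sample for MAEA and UBQLN4. APPBP2 (1998 to 2605, SD 0.116), TRPC4AP (2323 to 3304, SD 0.134) and PPIL2 (899 to 1268, SD 0.134), each also known in ubiquitin ligase complexes, lay in the same range of spread.

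In autophagy and at membranes, ATG2B, a lipid transfer protein of the growing autophagosome, ran from 723 to 943 (median 806, SD 0.111). EXOC1, a subunit of the exocyst that tethers vesicles to the plasma membrane, ran from 1090 to 1553 (median 1338, SD 0.138). CRKL, an adaptor protein of tyrosine kinase signalling, ran from 2546 to 3536 (median 3325, SD 0.138). The second pESCLC-FLB2i sample was the lowest of all 14 for CRKL, and the first Epi-piPSC-FLB2i sample for EXOC1.

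**Figure D1:**
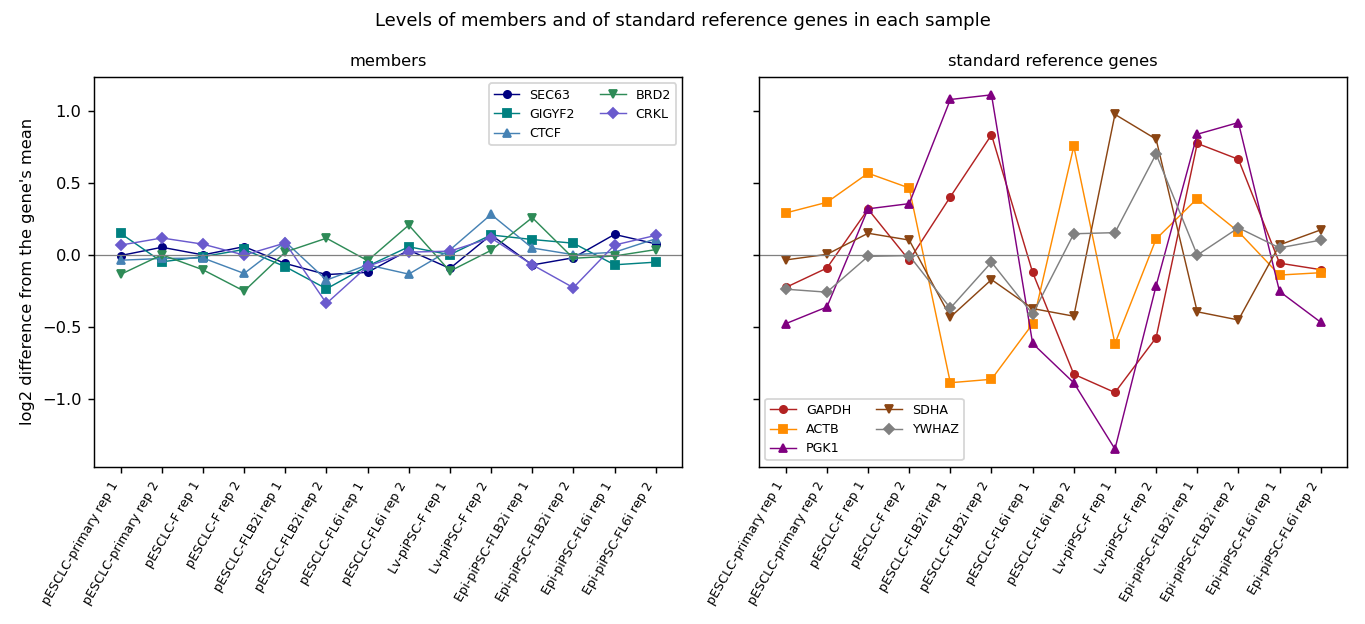
Level of 5 members (left) and 5 standard reference genes (right) in each of the 14 samples, as the log2 difference from the mean of the gene over the samples, with 1 point per sample and 1 line per gene. The members stay within about the spread of 1.21 to 1.43 times between extremes, while GAPDH, ACTB, PGK1, SDHA and YWHAZ differ by 2.17 to 5.53 times.

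Over the 200 genes the SD ran from 0.0896 to 0.228, with a median of 0.194, against a median of 0.428 in the other window genes. The ratio of the highest to the lowest sample ran from 1.21 to 1.91 (median 1.57), and all 200 genes stayed below 2, as did 385 (14.2%) of the other window genes, whose median ratio was 2.76. The mean level of the members ran from 608 to 5479 normalized counts (median 1445), against a median of 1584 in the others. Members were 49 of the 445 window genes with means of 500 to 1000 normalized counts, 6.08% of those from 1000 to 2000, 5.94% from 2000 to 4000 and 8.33% from 4000 to 8000. The window itself takes spread away near its 2 bounds, where a gene of wide spread would cross them.

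The 5 members with the highest mean normalized count, which is not divided by gene length and so does not rank genes by transcript number, included ENSSSCG00000013021, BRD2, PTPN11 and SF3B2. SF3B2, of the U2 splicing particle, ran from 3954 to 5734 normalized counts, with the lowest value in the second pESCLC-FLB2i sample. The 5 with the lowest mean were ZNF335, DNAJB12, NIF3L1, DPY30 and AZI2. ZNF335, a zinc finger regulator of transcription, ran from 501 to 768 normalized counts and AZI2, an adaptor of antiviral signalling, from 533 to 806. The lowest samples of ZNF335 (501) and NIF3L1 (500.4) lay at the lower bound of the window.

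**Figure D2:**
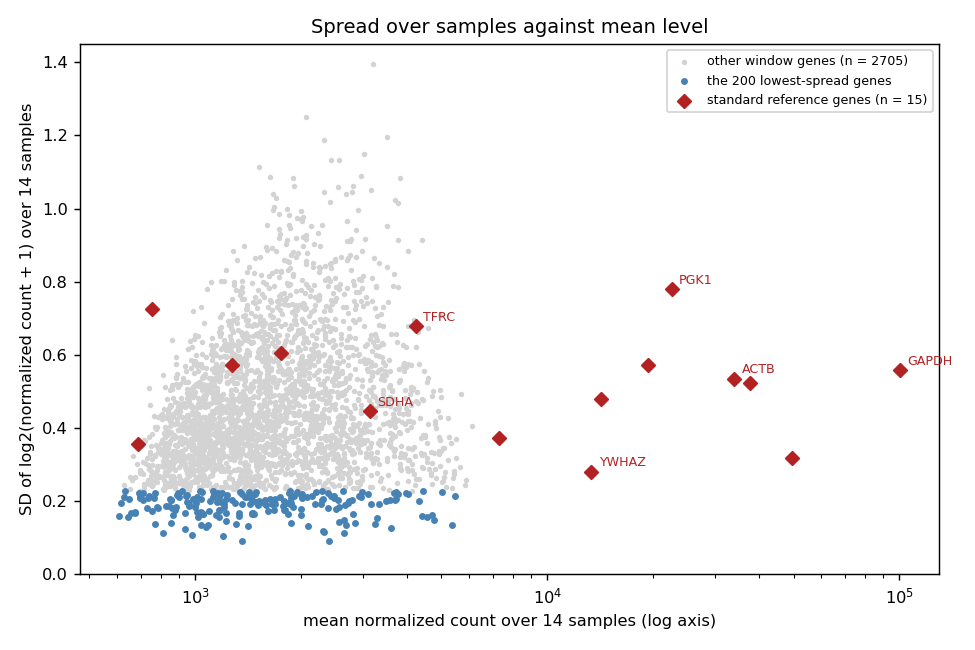
SD of log2(normalized count + 1) over the 14 samples against the mean normalized count (log axis) for the 200 genes, the other 2705 window genes and 15 standard reference genes, with 1 point per gene. The 200 genes fill the band from 0.0896 to 0.228 at all levels of the window, and every reference gene lies above it.

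Spread within and between groups was of like size in the members. The median SD between duplicates, pooled over the 7 groups, was 0.137 in the members and 0.212 in the other window genes, and the median SD of the 7 group means was 0.159 and 0.403. The group means spread more than the duplicates in 116 members (58.0%) and in 89.1% of the other window genes. No member had a group mean more than 0.5 from its own mean on the log2 scale. The 3 with the largest spread of group means were EMC4, PTPN11 and DRAP1. EMC4, of a membrane insertion complex of the endoplasmic reticulum, was at 831 and 791 normalized counts in pESCLC-FLB2i, 881 and 918 for Epi-piPSC-FLB2i, and 1249 and 1335 for Lv-piPSC-F. It lay between 949.9 and 1189 in every sample of the other groups. DRAP1, which represses transcription together with DR1, was at 1653 and 1821 in pESCLC-FLB2i and between 1083 and 1518 in every other sample. The 3 with the largest spread between duplicates were OSBP, DPF2 and ENSSSCG00000031083. OSBP, a sterol transfer protein, was at 614 and 1048 normalized counts in the pESCLC-FL6i samples, its lowest and highest of all 14. DPF2, a subunit of BAF remodelling complexes, was at 2697 and 1632 in the same samples, the highest and the lowest.

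The second pESCLC-FL6i sample stood apart most often. It was the furthest from the gene's mean in 44 of the 200 members, and the same sample was furthest in 24.8% of the other window genes. Next came the second Lv-piPSC-F sample with 29 members, the second pESCLC-FLB2i sample with 25 and the first Epi-piPSC-FLB2i sample with 24. The same samples were furthest in 24.5%, 7.73% and 6.62% of the other window genes, so the second of Lv-piPSC-F stood apart in about as many of those as the second of pESCLC-FL6i. The fewest were 4 in each of the second pESCLC-F and the first pESCLC-FLB2i samples. The second pESCLC-FL6i sample also had the fewest reads and the highest sum of fibroblast markers, whose part in its spread was not tested. Without it 145 of the 200 genes were still among the 200 of lowest SD, the fewest for any single sample left out, and with the second pESCLC-FLB2i sample left out too 123 were. The median absolute difference between duplicates was 0.247 on the log2 scale in pESCLC-FL6i, passages 3 and 9 of 1 line, and 0.0670 for Epi-piPSC-FL6i, which held 2 lines. The values for the others were 0.0948 for pESCLC-primary, 0.109 for pESCLC-F, 0.151 for pESCLC-FLB2i, 0.159 for Lv-piPSC-F and 0.108 for Epi-piPSC-FLB2i. In every group the other window genes differed more between duplicates, from 0.0796 for Epi-piPSC-FL6i to 0.435 for pESCLC-FL6i.

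**Figure D3:**
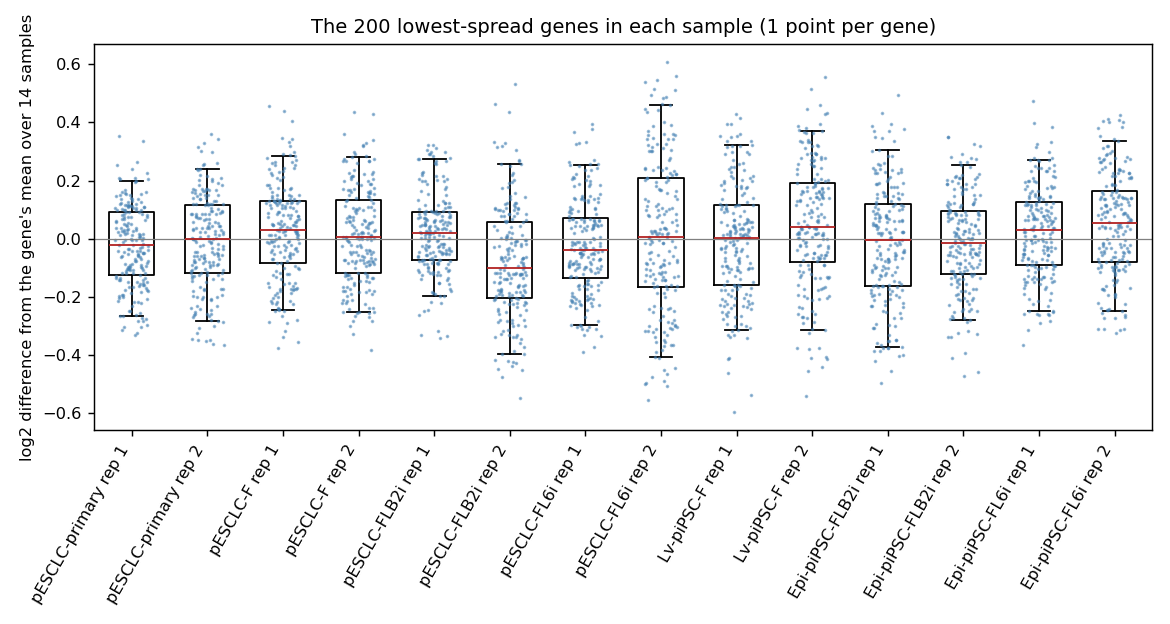
Log2 difference of each of the 200 genes from its own mean over the 14 samples, with 1 point per gene in each sample, boxes from the lower to the upper quartile, a red line at the median and whiskers from the 5th to the 95th percentile. The widest sample is the second of pESCLC-FL6i, and the lowest median, -0.101, is that of the second pESCLC-FLB2i sample.

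As a body the 200 genes were nearly level. Their median difference from their mean was -0.0122 ± 0.0148 (SD, n = 2) for pESCLC-primary, 0.0176 ± 0.0173 (SD, n = 2) for pESCLC-F, -0.0407 ± 0.0852 (SD, n = 2) for pESCLC-FLB2i and -0.0165 ± 0.0309 (SD, n = 2) for pESCLC-FL6i on the log2 scale. It was 0.0220 ± 0.0260 (SD, n = 2) for Lv-piPSC-F, -0.0097 ± 0.0050 (SD, n = 2) for Epi-piPSC-FLB2i and 0.0422 ± 0.0156 (SD, n = 2) for Epi-piPSC-FL6i. The second pESCLC-FLB2i sample, at -0.101, had 135 of the 200 genes below their mean. DESeq2 sets each sample's size factor at the median ratio over genes, which pulls such genes to a common level by construction. With total reads as the scale, which shifts all genes of a sample alike, the sign turned in every group but pESCLC-primary and Epi-piPSC-FL6i. The medians then ran from -0.142 for pESCLC-F to 0.134 for pESCLC-FL6i. The sign of medians this close to 0 thus rests on the scale and says nothing of these genes in particular. Size factors estimated from the 200 genes alone were 0.932 to 1.04 times the deposited ones. The 200 genes took between 1.76% and 2.24% of the reads on genes of a sample.

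By task, 55 of the 200 genes were in 1 of the 21 gene lists used, and 6.88% of all window genes were members. The gene list shares rest on the same values as the rule, so they are counts only. Of the chromatin list 10 of 57 window genes were members (17.5%, median SD of the 57 genes 0.340 against 0.414 over the window). They were CTCF, BRD2, SETD2 (1797 to 2749 normalized counts) and KMT2B (536 to 943), which methylate histone H3, HDAC3 (1222 to 1867), a deacetylase, CHD8, EHMT2, NIPBL, YY1 and DPY30. Of the ubiquitin list 11 of 74 were members (14.9%, median SD 0.365). They included the ligases UBR1, UBR2 and TRIP12, the deubiquitinases USP5 (2629 to 4160), USP8 (902 to 1280) and BAP1 (1816 to 3028), the substrate receptors DCAF8 and DCAF11, and CAND1, which exchanges such receptors. Of the phosphatase list 3 of 20 were members, namely PPP2R5D, PPP2R5E and PPP6R3, all regulatory subunits.

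RNA processing and traffic contributed further members. Of the spliceosome list 6 of 42 window genes were members (14.3%, median SD 0.371). These were PRPF31, PRPF6 and SART1 of the tri-snRNP, SF3B2, PUF60 and SRSF11. Of the Golgi traffic list 6 of 48 were members (12.5%), ARFGEF1, ARFGAP2, SEC24B, TRAPPC3, TRAPPC11 and COG1. The endosome and lysosome list had 8 of 67 (11.9%), the adaptor subunits AP1G1 and AP2A1 (3763 to 5341), the tethering and sorting proteins VPS16, VPS33B, VPS36, VPS51 and SNX6, and RAB8A. The list of the endoplasmic reticulum had 4 of 34 (11.8%), SEC63, SRPRB, SPCS2 and EMC4. Of mRNA export and decay 2 of 33 were members (6.06%), CNOT3 and CPSF7, and of RNA polymerase II and Mediator 2 of 45 (4.44%), RTF1 (1616 to 2093) and MED14.

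Other lists of basic cellular tasks held few members or 0. The mitochondrial list had 1 of 50 (2.00%, median SD 0.448), NDUFB11 of respiratory complex I, at 607 to 956 normalized counts. The proteasome list had 0 of 27, with a lowest SD of 0.238, the nuclear pore list 0 of 33, translation factors 0 of 18 (median SD 0.503), aminoacyl-tRNA synthetases 0 of 14 (median SD 0.562) and the chaperonin list 0 of 11. Of replication 0 of 7 window genes were members, of glycolysis 0 of 2 and of cytosolic ribosomal proteins 0 of 1, since most genes of these 3 lists lay outside the window.

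**Figure D4:**
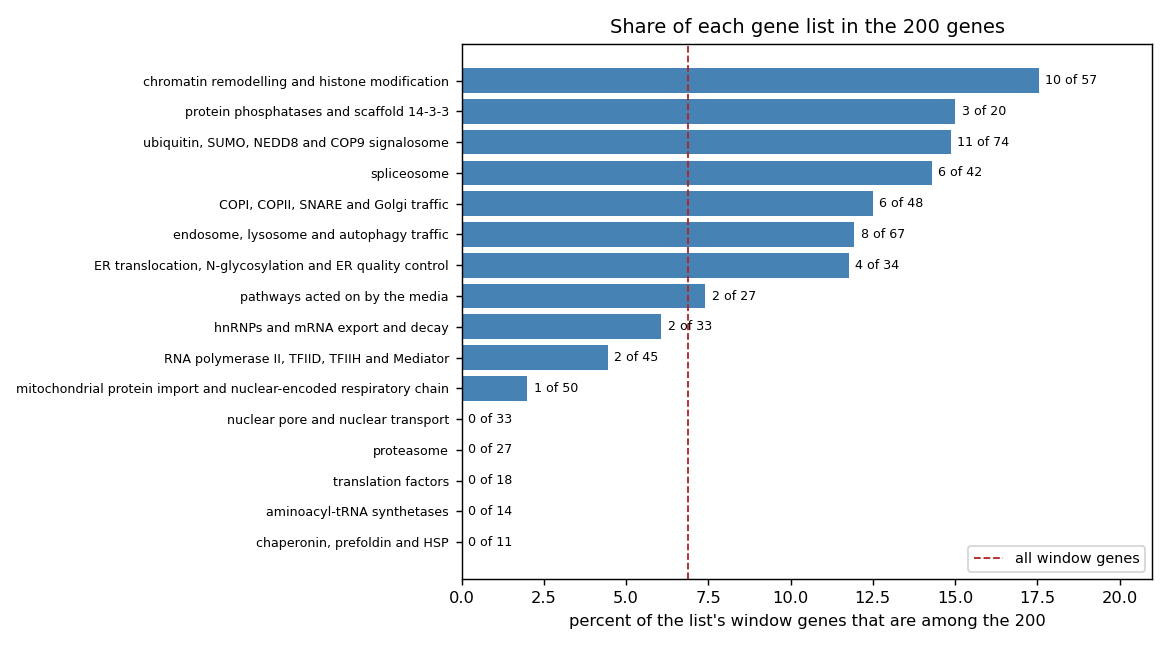
Percent of the window genes of each list that were among the 200, for lists with at least 10 window genes, with the counts beside the bars. The dashed line is the share over all window genes, 6.88%, and the bars run from 0 of 33 in the nuclear pore list to 10 of 57 in the chromatin list.

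None of the standard reference genes of qPCR was among the 200. Of 20 such genes on the list 15 were matched, and all 15 had a higher SD than every member. Only the 4 in the window could be members, where 6.88% of all genes were, so 0 of 4 is near that share. YWHAZ, a 14-3-3 protein, had the lowest, 0.280, with 9835 to 21304 normalized counts and the highest value in the second Lv-piPSC-F sample, without which it was 0.202. Higher values were those of RPLP0 (SD 0.318), ALAS1 (SD 0.355), TOP2B (SD 0.372), SDHA (SD 0.445), RPL4 (SD 0.523) and ACTB (SD 0.535). GAPDH (SD 0.558), HPRT1 (SD 0.571), RPS18 (SD 0.572), GUSB (SD 0.604), TFRC (SD 0.678) and PGK1 (SD 0.779) lay higher. The rule did not choose these genes, and in a limma F test over the 7 groups 10 of the 15 differed at a Benjamini-Hochberg adjusted p under 0.05, beside 69.4% of the 16028 genes tested. That count moved in both directions when single samples were left out, as given in the last section. PGK1, SDHA, TFRC and HPRT1, a purine salvage enzyme, passed with any 1 sample left out. Those that did not pass included YWHAZ (adjusted p = 0.21), RPLP0 (adjusted p = 0.208), RPL4 (adjusted p = 0.0795) and ACTB (adjusted p = 0.0666). With 2 samples a group such a p does not show that their levels were equal.

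GAPDH, a glycolytic enzyme and the usual divisor in qPCR, was at 80062 and 87925 normalized counts in pESCLC-primary, 116827 and 91295 for pESCLC-F, 124013 and 167279 for pESCLC-FLB2i and 86070 and 52666 for pESCLC-FL6i. It was at 48221 and 62824 for Lv-piPSC-F, 160486 and 148645 for Epi-piPSC-FLB2i and 90028 and 87256 for Epi-piPSC-FL6i. Both FLB2i groups lay above every sample in the other media, and Lv-piPSC-F and the second pESCLC-FL6i sample lay lowest. The highest sample was 3.47 times the lowest, and the groups differed in the limma F test (F = 5.25, adjusted p = 0.0185), a call lost without either of the 2 Epi-piPSC-FLB2i samples. PGK1, the next enzyme of glycolysis, was at 41796 and 42744 for pESCLC-FLB2i, 35337 and 37393 for Epi-piPSC-FLB2i and at most 25279 in every other sample (limma F test, adjusted p = 0.00124). ACTB, cytoplasmic actin, was lowest in pESCLC-FLB2i, at 17270.5 and 17560 normalized counts, and highest at 54072 in the second pESCLC-FL6i sample. SDHA, of respiratory complex II, was at 5867 and 5204 for Lv-piPSC-F and at most 3358 elsewhere (limma F test, adjusted p = 0.000252).

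The difference of FL6i from FLB2i in GAPDH was -1.10 for pESCLC and -0.80 for Epi-piPSC on the log2 scale. The difference between these was -0.30 ± 0.47 (SE), with an adjusted p of 0.756 in limma. The transferrin receptor TFRC was the 1 reference gene for which this difference passed the test, beside 7.8% of all genes tested. It was at 7609 and 5416 normalized counts in pESCLC-FLB2i and 3550 and 2164 for pESCLC-FL6i, but at 3877 and 4647 for Epi-piPSC-FLB2i and 6121 and 5444 for Epi-piPSC-FL6i. By group means FL6i was thus lower than FLB2i in pESCLC and higher in Epi-piPSC (-1.21 and 0.44 on the log2 scale). Neither of these was tested on its own. The difference between them was -1.66 ± 0.41 (SE), with an adjusted p of 0.0377 in limma. The call was lost without either pESCLC-F sample, the first pESCLC-FLB2i sample, the second pESCLC-FL6i sample or any of the 4 Epi-piPSC-FLB2i and Epi-piPSC-FL6i samples, when 0 reference genes passed. Without the first pESCLC-FL6i sample 6 of them passed.

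Division by a reference gene is given as a description only. The members were chosen for low SD over these samples, so their spread after division follows that of the divisor by construction. The median SD of the 200 genes was 0.194 as deposited, 0.5996 after division by GAPDH and 0.553 after division by ACTB. Their median ratio of the highest to the lowest sample was 1.57, 4.10 and 3.35 in the same order. After division by a single member the median SD over the other members was 0.195 for SEC63 and 0.210 for CTCF. Both were themselves chosen for low SD on the same samples. These values thus also follow from the rule and say nothing of their worth as divisors.

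A second list, of 11 genes known for uniform levels in human tissues, held 10 with a row and 6 in the window, and 0 members. VCP, an ATPase that extracts ubiquitinated proteins, had an SD of 0.169, within the range of the members, but at 7480 to 11192 normalized counts it crossed the upper bound. PSMB4, of the proteasome, had an SD of 0.257, RAB7A, of late endosomes, 0.301, and REEP5, of tubular endoplasmic reticulum, 0.601. The glycolytic enzyme GPI of the same list had an SD of 0.777.

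Of the pathways that the media act on, 64 of 65 listed genes were matched, 27 lay in the window and 2 were members (7.41%), among them PTPN11. PTPN11 (SHP2), a phosphatase that relays signals from growth factor receptors, was at 6343 and 6474 for Lv-piPSC-F, 4001 and 3880 for pESCLC-FL6i and between 4154 and 5735 elsewhere (SD 0.226). Both Lv-piPSC-F samples lay above and both pESCLC-FL6i samples below all others. These values say nothing of the activity of the phosphatase.

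MAPK3 (ERK1), a kinase at the end of the FGF to MEK cascade, ran from 612 to 2350 normalized counts (SD 0.605) and its activator MAP2K1 from 660 to 2071 (SD 0.447). NRAS (SD 0.239), between the receptors and MEK, was close to the border of the 200. The 27 window genes of the list had a median SD of 0.336, below the 0.414 of the whole window, and the 64 matched genes one of 0.764. Low SDs were those of the exchange factor SOS1 (0.264), SMAD4 (0.274), the receptor BMPR1A (0.283), the adaptor GRB2 (0.286) and the kinases GSK3A (0.302) and MAPK14 (0.333). High ones in the window were those of the receptors IL6ST (0.573) and TGFBR1 (0.601) and of STAT3 (0.878), and outside it NODAL had an SD of 4.78. DUSP6, a target of the pathway, ran from 138 to 2830 (SD 1.47). Of the 62 genes of the list that were not members, 49 (79.0%) differed between the groups in the limma F test at an adjusted p under 0.05, beside 69.4% of all genes tested. Among them were MAPK3 (adjusted p = 0.00322), STAT3 (adjusted p = 0.00355) and DUSP6 (adjusted p = 0.000227), and not NRAS (adjusted p = 0.0547) or MAP2K1 (adjusted p = 0.0527). Against pESCLC-primary, 9 of the 62 were higher and 20 lower in pESCLC-FL6i, where 33.8% of all genes passed, and 6 were higher and 13 lower in pESCLC-FLB2i, where 30.3% did. In Epi-piPSC-FL6i 4 were higher and 23 lower (27.5% of all genes), in Epi-piPSC-FLB2i 10 and 16 (29.2%), in Lv-piPSC-F 3 and 25 (34.8%) and in pESCLC-F 0 and 1 (1.15%). These comparisons share the pESCLC-primary samples. Markers of other cell types moved in the same comparisons. The trophectoderm marker sum was 112399 and 134934 for pESCLC-primary and at most 34840 in every group but this one and pESCLC-F. The sum of 6 primitive endoderm markers was 21822 and 24007 for pESCLC-primary and at most 1339 in those same groups. In pESCLC-FL6i, pESCLC-FLB2i and Lv-piPSC-F the second sample had the higher fibroblast marker sum given above. STAT3 was at 2434 and 6775 normalized counts in the 2 pESCLC-FL6i samples, JAK1, a kinase that acts on it, at 1114 and 4548, and MAPK3 at 1333 and 2350, each time with its highest value of all 14 in the second. Without that sample 7 genes were higher and 18 lower in pESCLC-FL6i (29.6% of all genes), and 24 of these 25 were among the 29 called with it. Without the second sample of their own group 2 were higher and 11 lower in pESCLC-FLB2i (22.2%), and 0 and 19 in Lv-piPSC-F (29.7%), with the lone sample of each group taken to vary like the other groups. The part of RNA from fibroblasts, trophectoderm, primitive endoderm, neural ectoderm or mesoderm in these values was not tested.

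**Figure D5:**
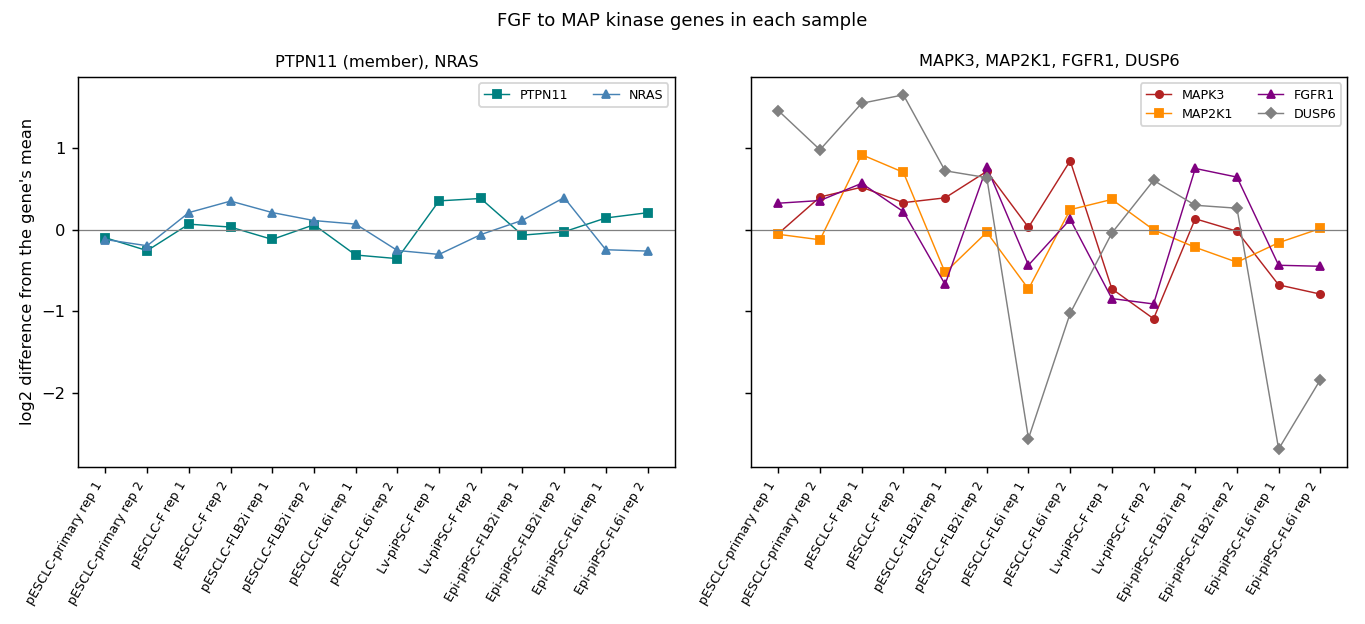
Level of 6 genes of the FGF to MAP kinase pathway in each of the 14 samples, as the log2 difference from the mean of the gene over the samples, with 1 point per sample and 1 line per gene. On the left PTPN11 (a member) and NRAS have SDs of 0.226 and 0.239, and on the right MAPK3, MAP2K1, FGFR1 and DUSP6 have SDs of 0.447 to 1.47.

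To see the spread in samples that did not choose the genes, the rule was applied within the window to the cells of 1 origin and read in the other. The 200 genes of lowest SD in the 8 pESCLC samples had a median SD of 0.132 there and of 0.269 in the 6 piPSC samples, where the median of all window genes was 0.346. Of these 200 genes 139 (69.5%) lay below that median, 26 were among the lowest 200 of the piPSC samples, and 84 were among the 200 described here. The 200 genes of lowest SD in the 6 piPSC samples had a median SD of 0.111 there and of 0.306 in the pESCLC samples, where the median of all window genes was 0.337. Of these 114 (57.0%) lay below that median, and 63 were among the 200. The members thus depended on which cells the rule was applied to, and all samples shared 1 normalization and 1 level window.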

How the data were processed

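RNA was sequenced from 14 samples in 7 groups of 2. The authors made stranded mRNA libraries, aligned 50 bp paired-end reads to Sscrofa11.1 with TopHat 2.1.0, counted them on genes with HTSeq 0.8.0 at its default settings and used DESeq2 to bring the samples to a common scale. The table deposited holds the resulting signal per gene and sample, named normalized counts here. All values (100%) were whole multiples of 1 step per sample, at most 1.8e-09 reads off, which gave back the reads for edgeR (11205 genes called) and DESeq2 (12675). The strand setting is not stated beyond the default, and reads matching several places were not counted, so overlapping and duplicated genes are uncertain.

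The 200 genes, the gene lists and the markers were chosen with earlier results of these data known. The rule for named genes took the 20 lowest SDs, the 5 highest and 5 lowest means, 3 genes on each side of the border, every member in a list, the 3 with the largest spread between groups and between duplicates, and the standard reference genes. Some items that the rule took are not reported here. Other genes named from the lists and chromosomes were chosen after their values were seen. Symbols came from a table of names matched by identifier (14151 of 19588 genes), and positions and promoters from RefSeq on Sscrofa11.1.

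Groups were compared with limma 3.58.1 (R 4.3.3), with a trend, on log2(normalized count + 1) over all samples, for the 16028 genes that reached 10 normalized counts in 2 samples or more. A fold change on this scale is understated for low genes. On simulated reads for the 7-group test over 16028 genes, it found 91 of 100 genes changed 2-fold and 100 of 100 changed 4-fold. The interaction of medium and origin was added after seeing the data. Alternatives were other normalizations (edgeR 4.0.16 TMM, total reads), pseudocounts, filters, spread measures, bounds and tests (edgeR, DESeq2 1.42.0), the replicate number as a block, and each sample left out. Duplicates were samples or passages of lines, so p-values measure only the spread between these. Differences in total RNA per cell are not seen in normalized counts.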

Additional observations from a re-analysis of the deposited data

Results flagged for a closer look

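TFRC, the transferrin receptor, was marked because the difference of FL6i from FLB2i was not the same in the 2 origins. Its sign was opposite by group means, and neither difference was tested on its own. The difference of FL6i from FLB2i was -1.21 in pESCLC and 0.44 in Epi-piPSC on the log2 scale, and the difference between them was -1.66 (limma interaction, adjusted p = 0.0377, 2 samples a group). Each of the 2 pESCLC-FL6i samples was below both pESCLC-FLB2i samples, and each of the 2 Epi-piPSC-FL6i samples above both Epi-piPSC-FLB2i samples. The interaction was added after seeing the data, and 8 of the 14 samples, each left out in turn, ended the call.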

How the results depend on the processing

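The rule was applied again under other choices. Of the 200, 187 were kept with TMM, 195 with the counting variance taken off and 190 without the upper bound. Fewer were kept with total reads (119), the median absolute deviation (101), a lower bound of 1000 (117), the 8 pESCLC samples alone (80) or the 6 piPSC samples alone (53), the last 2 with the window set on those samples. With 1 sample left out, between 145 and 190 were kept, 122 in every case, and the 20 of lowest SD stayed in each time. Over all 28 alternatives together 8 of the 200 and 7 of those 20 were kept every time. With the second pESCLC-FL6i and pESCLC-FLB2i samples both left out, chosen after seeing the data, 123 were kept. None of the 15 matched reference genes entered the 200 in these alternatives. Those outside the level window could enter only in an alternative that brought them inside, such as one with no upper bound. Among them was YWHAZ, whose SD of 0.202 without the second Lv-piPSC-F sample was within the range of the members.

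Total reads in place of the deposited size factors shifted all genes of a sample by -0.195 to 0.169 on the log2 scale. The median difference of the 200 genes then became -0.142 in pESCLC-F, 0.134 in pESCLC-FL6i, -0.129 in Lv-piPSC-F, 0.00824 in Epi-piPSC-FLB2i and 0.110 in Epi-piPSC-FL6i. With TMM it was 1.6e-05 in pESCLC-F and 0.0028 in Epi-piPSC-FLB2i. With 1 sample left out it ran from -0.0181 to -0.0042 in Epi-piPSC-FLB2i.

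The F test called 11120 genes, and between 9531 and 13086 with 1 sample left out. At least 1 line differed from pESCLC-primary in 10675 genes, and in 6661 to 13018 with 1 sample left out, the fewest without the second pESCLC-primary sample. Of the 15 reference genes 10 passed the F test, 12 with DESeq2, and 6 to 14 with 1 sample left out, the fewest without the second Epi-piPSC-FL6i sample. The causes of these shifts were not tested. With the replicate number as a block, 10963 genes passed, 10535 differed in at least 1 line from pESCLC-primary, and 9 reference genes passed. In most groups the equal numbers do not pair the samples. Same-numbered samples correlated above 0.1 in 1 of 21 pairs of groups (median 0.0048, highest 0.360).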
